A study of Mus musculus with 6 samples.

Results

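The genes of MHC class I antigen presentation were followed in RNA-seq of 3 spleens of passage 1 (P1) recipients and 3 samples of wild-type (WT) splenic B cells. The group was fixed by name as 10 of the 56884 genes in the count table: the class I heavy chains H2-K1 and H2-D1, their light chain B2m, the peptide transporter genes Tap1 and Tap2, tapasin (Tapbp), the immunoproteasome subunits Psmb8, Psmb9 and Psmb10, and the regulator Nlrc5. The symbols were matched to the table by Ensembl ID, and all 10 were among the 15462 genes tested. The P1 mice received transferred cells of the Eµ-SOX11CCND1 mouse model of mantle cell lymphoma, a B cell lymphoma, and their label is spleen with no cell selection named. The names of the transgenes are those of the drivers, SOX11 and cyclin D1, and Eµ is the immunoglobulin heavy chain enhancer, which is active in B lineage cells. The WT samples were B cells selected from spleen, and their column headers carry the word BL6. Age, sex, recipient strain and the number of donors were not given in the sources used here, and neither group was given a further treatment in the labels. The P1 libraries are numbered 3, 4 and 5 as labelled, and the WT libraries are called A, B and C because nothing links a column to 1 of the labelled mice.

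Class I molecules carry short peptides from proteins made inside the cell to its surface, where CD8 T cells read them. Proteasomes cut the proteins, and cells exposed to interferon gamma swap the 3 catalytic subunits of the standard particle for those encoded by Psmb8, Psmb9 and Psmb10. The TAP transporter, a heterodimer of the products of Tap1 and Tap2, moves peptides into the endoplasmic reticulum, where tapasin helps load them onto the heavy chain and beta-2 microglobulin. Nlrc5 is a transcriptional coactivator of class I, TAP, beta-2 microglobulin and Psmb9 genes, and acts with the RFX, CREB and NF-Y factors that bind the SXY module of their promoters. Nearly all nucleated cells express class I, B and T cells at high levels, while maturing red cells lose it.

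P1 replicate 4 stood apart from the other libraries. It had 17.36% of its counts on the mitochondrial genome, against 0.09 to 3.4% in the other 5 libraries, and its TMM scaling factor was 0.578, against 1.086 to 1.184. Totals were 7510327 to 10363396 counts in P1 and 12196413 to 14266132 in WT libraries. The cell content of the groups differed as well. Summed levels of 16 pan-B cell genes were 1320 to 3759 CPM in P1 and 11470 to 12340 CPM in WT. Red cell precursor genes summed to 32460, 194100 and 6261 CPM in P1 replicates 3, 4 and 5 and to 96.3 to 117 CPM in WT, with Alas2 of heme synthesis at 1241, 6940 and 177 CPM in P1 and 3.58, 2.38 and 3.93 CPM in WT. Neutrophil genes summed to 956 to 7203 CPM in P1 and 2.44 to 7.56 CPM in WT, with S100a8 at 532, 76.8 and 99.9 CPM in P1 and under 1 CPM in each WT library. T cell genes summed to 294 to 628 CPM in P1 and 44.95 to 58.3 CPM in WT, and macrophage genes to 472 to 1098 CPM in P1 and 204 to 511 CPM in WT. The macrophage gene C1qa had 71.7, 42.6 and 55.9 CPM in P1 and 19.9, 36.1 and 52.4 CPM in WT. CPM is the count scaled to the TMM-adjusted library size (a scaling that takes most genes as equal between libraries) and is called the normalised level. In such bulk samples, fewer cells of a type and less RNA per cell cannot be told apart, nor can tumour, genotype and B cell selection. The titles name separate mice. All p-values rest on 3 libraries in each group, except where a library was left out, which leaves 1 fewer in its group. Those of edgeR and DESeq2 also draw on the spread of other genes.

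Promoters of the genes are shown because Nlrc5 acts on them through shared elements and because the heavy chain genes are near copies of each other there. The windows are RefSeq sequences on GRCm38.p6 from 250 bases before to 50 bases after the start of transcription, and 8 of the 10 genes were matched. Capitals mark, on either strand, the letters CCAAT (the NF-Y box), TGACG (part of a cAMP response element, as in the X2 box), the core of an interferon-stimulated response element (GAAA, any 2 bases, GAAA) and the NF-kappaB element in 2 spellings that overlap each other, which make the first run of capitals in the H2-K1 and H2-D1 lines. For H2-K1 the table holds 2 windows, and the one with the farther downstream start is shown. The lines run 5′ to 3′ along the gene, H2-K1 on the minus strand of chr17:34000284-34000583, H2-D1 on the plus strand of chr17:35262844-35263143, B2m on the plus strand of chr2:122147437-122147736 and Tap1 on the plus strand of chr17:34187306-34187605.
H2-K1: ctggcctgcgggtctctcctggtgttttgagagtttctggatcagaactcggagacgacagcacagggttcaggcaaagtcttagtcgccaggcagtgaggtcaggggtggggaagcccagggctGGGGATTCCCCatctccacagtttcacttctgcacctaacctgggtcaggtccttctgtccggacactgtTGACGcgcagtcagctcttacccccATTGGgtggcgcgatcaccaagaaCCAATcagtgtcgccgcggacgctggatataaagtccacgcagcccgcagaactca
H2-D1: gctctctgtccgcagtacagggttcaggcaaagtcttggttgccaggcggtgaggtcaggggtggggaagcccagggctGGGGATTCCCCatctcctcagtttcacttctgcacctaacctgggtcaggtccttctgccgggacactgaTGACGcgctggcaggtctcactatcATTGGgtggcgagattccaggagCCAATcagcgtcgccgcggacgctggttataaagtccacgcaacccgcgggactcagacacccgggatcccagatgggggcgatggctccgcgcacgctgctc
B2m: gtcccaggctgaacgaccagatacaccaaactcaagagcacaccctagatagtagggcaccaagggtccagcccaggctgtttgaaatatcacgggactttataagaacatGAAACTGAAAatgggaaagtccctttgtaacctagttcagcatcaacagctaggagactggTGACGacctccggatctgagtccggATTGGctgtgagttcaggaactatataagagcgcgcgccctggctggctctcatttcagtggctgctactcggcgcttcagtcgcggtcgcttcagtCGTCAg
Tap1: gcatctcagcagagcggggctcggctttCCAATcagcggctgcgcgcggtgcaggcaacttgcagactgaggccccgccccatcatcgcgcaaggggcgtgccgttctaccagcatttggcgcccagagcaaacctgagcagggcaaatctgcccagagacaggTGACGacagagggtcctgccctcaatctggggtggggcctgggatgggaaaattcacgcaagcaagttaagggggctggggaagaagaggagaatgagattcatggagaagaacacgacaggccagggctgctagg

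The H2-K1 and H2-D1 windows aligned over 242 columns with 89.7% identity, and both held 1 TGACG, 2 CCAAT and both NF-kappaB spellings in the same order. The distances from the annotated start differed, with TGACG beginning 55 bases before the start base in H2-K1 and 101 before it in H2-D1. The 2 CCAAT began 30 and 6 bases before the start base in H2-K1 and 76 and 53 before it in H2-D1. The spacing between the elements was thus nearly the same in both genes, and the offset lies in where the start is annotated. B2m held 1 CCAAT 53 bases before the start and 2 TGACG. It also held the only match, among the windows of the 8 genes, to the interferon response core as spelled above. Other spellings of that element were not searched, so a window without a match may still hold one. Tap1 and Psmb9 are read in opposite directions from starts 226 bases apart, so their windows share 275 bases and the same TGACG and CCAAT. Tapbp had 2 CCAAT, and Psmb8 and Psmb10 held none of these letters. Of the 32851 windows in the RefSeq table, 37.41% held CCAAT, 20.81% TGACG, 3.44% the interferon response core, and 0.09% and 0.11% the NF-kappaB spellings. A match describes letters and not a bound site.

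Nlrc5 was the gene of the group that rose in P1 spleens, while the heavy chains and beta-2 microglobulin were at about the same normalised level in both groups. By the edgeR quasi-likelihood test with Benjamini-Hochberg adjustment, 1 of the 10 genes was called higher and 0 lower at an adjusted p under 0.05. Over all tested genes 16.9% were called higher and 11% lower, 27.9% in all, so the share of calls in the group was below the background. At an unadjusted p under 0.05, 2 of the 10 were higher and 0 lower, and DESeq2 called 2 higher (20.1% of all genes). The median log2 fold change of the 10 genes was 0.28, beside 0.02 over all tested genes. No P1 library lay within the WT range, nor the reverse, for 2 of the 10 genes, both higher, against 47.8% of all genes, 22.9% higher and 24.9% lower.

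**Figure D1:**
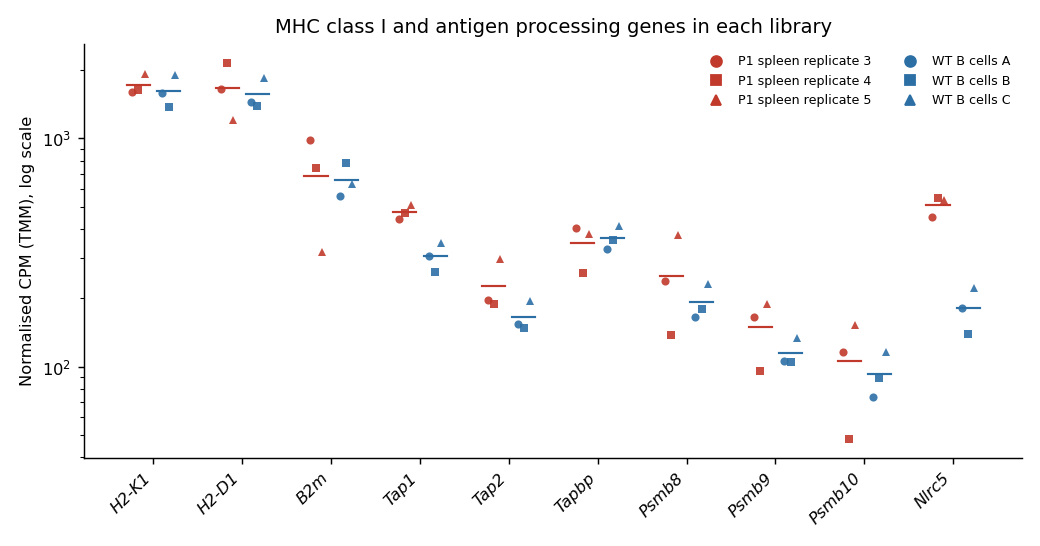
Normalised CPM on a log axis of the 10 genes in each library, with a bar at the mean of each group of 3 libraries (red P1 spleen, blue WT B cells). Nlrc5 and Tap1 are the genes whose groups stand apart, while B2m and Psmb10 spread over more than 3-fold within P1.

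H2-K1 encodes one of the classical heavy chains (chromosome 17, 34214991 to 34219321 on GRCm39, minus strand). Its level was 1603, 1624 and 1908 CPM in P1 replicates 3, 4 and 5, against 1576, 1375 and 1895 CPM in WT A, B and C. WT C lay within the range of P1, and WT A and WT B lay below it. The log2 fold change was 0.08 ± 0.36 (standard error, n = 3 per group), with a 95% interval of -0.74 to 0.91 (edgeR adjusted p = 0.887), which as a fold runs from 0.598 to 1.88.

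H2-D1, the other classical chain (chromosome 17, 35481706 to 35486475, plus strand), had 1641, 2144 and 1210 CPM in P1 spleens and 1443, 1385 and 1848 CPM in WT B cells. P1 held both the highest and the lowest library. Its log2 fold change was 0.10 ± 0.39 (95% interval -0.80 to 0.99, edgeR adjusted p = 0.88), and -0.11 without P1 replicate 4 (adjusted p = 0.812). The ratio of H2-K1 to H2-D1 in counts per kilobase was 0.857, 0.665 and 1.39 in P1 and 0.959, 0.871 and 0.9 in WT, so the recipients differed from one another more than the WT samples did. Of the 50-base windows of a reference transcript in GENCODE M21, 138 of 1570 for H2-K1 and 294 of 2053 for H2-D1 occur in a transcript of another gene, and reads from these parts can be counted for a paralog.

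The classical and nonclassical class I chain genes were therefore also counted as 1 sum. It came to 4030, 4746 and 3906 CPM in P1 replicates 3, 4 and 5 and to 3717, 3383 and 4606 CPM in WT A, B and C. The means were 4227 ± 454 CPM in P1 and 3902 ± 632 CPM in WT (SD, n = 3 each). The log2 fold change of the sum was 0.12 ± 0.43 (95% interval -0.88 to 1.11, edgeR adjusted p = 0.869), and its sign, like those of H2-K1, H2-D1 and B2m, turned with library totals in place of TMM factors and with no filter on low counts.

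B2m encodes beta-2 microglobulin, without which heavy chains do not reach the surface (chromosome 2, 121978167 to 121983564, plus strand). It had 987, 741 and 318 CPM in P1 spleens and 560, 781 and 629 CPM in WT B cells. The P1 libraries spanned 3.11-fold and the WT libraries 1.39-fold. The means were 682 ± 339 and 657 ± 113 CPM (SD, n = 3 each) in P1 and WT, and the log2 fold change was 0.05 ± 0.44 (95% interval -0.95 to 1.06, edgeR adjusted p = 0.942). P1 replicate 3, with the highest B2m, had neutrophil, T cell and macrophage gene sums of 7203, 628 and 1098 CPM. P1 replicate 4, with the middle level, had 956, 299 and 474 CPM, and P1 replicate 5, with the lowest, had 2474, 294 and 472 CPM. The T cell and macrophage sums kept the order of B2m, with replicates 4 and 5 nearly equal, and the neutrophil sum did not. The part of these cell types in the B2m values was not tested. Without P1 replicate 3 the log2 fold change of B2m was -0.32, and without P1 replicate 5 it was 0.38.

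Set against B2m within each library, the chains did not separate the groups. H2-K1 per B2m, in counts per kilobase, was 0.475, 0.641 and 1.76 in P1 and 0.823, 0.515 and 0.882 in WT (exact permutation p = 0.9, two-sided). H2-D1 per B2m was 0.554, 0.965 and 1.27 in P1 and 0.859, 0.591 and 0.98 in WT (exact permutation p = 0.8). The H2-K1 ratio was lowest in P1 replicate 3, the library highest in B2m, and highest in P1 replicate 5. Of the 9 genes set against B2m, Nlrc5 alone separated the groups, with 0.046, 0.075 and 0.171 in P1 and 0.033, 0.018 and 0.036 in WT (exact permutation p = 0.1, adjusted 0.9 over the 9 ratios). With 3 against 3 libraries, 0.1 is the smallest p this test can give.

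The TAP genes had higher means in P1 without passing the adjusted threshold. Tap1 (chromosome 17, 34406527 to 34416199, plus strand) had 442, 470 and 509 CPM in P1 spleens and 305, 259 and 349 CPM in WT B cells. All 3 recipients were above all 3 WT samples, and the P1 libraries spanned only 1.15-fold. Its log2 fold change was 0.64 ± 0.27, a fold of 1.56 (95% interval 1.01 to 2.41, unadjusted p = 0.0468, edgeR adjusted p = 0.119). DESeq2 called it (adjusted p = 0.0289), and the edgeR adjusted p ran from 0.0716 to 0.421 as single libraries were left out. Tap2 (chromosome 17, 34422501 to 34435295, plus strand) had 195, 187 and 297 CPM in P1 and 154, 147 and 194 CPM in WT, where WT C lay within the range of P1. Its log2 fold change was 0.45 ± 0.29 (edgeR adjusted p = 0.275), and leaving out P1 replicate 5, where its level was highest, gave 0.19 (adjusted p = 0.559). Per kilobase, Tap1 exceeded Tap2 by 1.57, 1.73 and 1.18 in P1 and by 1.36, 1.22 and 1.24 in WT.

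Tapbp, the gene of the loading chaperone tapasin (chromosome 17, 34134873 to 34148266, plus strand), had 404, 257 and 383 CPM in P1 and 328, 357 and 412 CPM in WT. Its log2 fold change of -0.07 ± 0.30 was the only negative one of the 10 (95% interval -0.75 to 0.60, edgeR adjusted p = 0.882). It became 0.13 without P1 replicate 4 (adjusted p = 0.695), the library with the lowest level. The Tapbp exons share 149 bases with Zbtb22 on the same strand, and reads there may be counted for either gene or for neither.

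The immunoproteasome genes varied more between recipients than between groups. Psmb8 (chromosome 17, 34416695 to 34420428, plus strand), which takes the place of Psmb5, had 236, 138 and 377 CPM in P1 and 165, 178 and 230 CPM in WT. Psmb9 (chromosome 17, 34400961 to 34406738, minus strand), which takes the place of Psmb6, had 164, 95.6 and 188 CPM in P1 and 106, 105 and 134 CPM in WT. Psmb10 (chromosome 8, 106662367 to 106665076, minus strand), which takes the place of Psmb7, had 116, 48.1 and 152 CPM in P1 and 73.3, 88.7 and 116 CPM in WT. In all 3 genes P1 replicate 4 was the lowest of the 6 libraries and P1 replicate 5 the highest.

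The log2 fold changes were 0.39 ± 0.38 for Psmb8, 0.38 ± 0.30 for Psmb9 and 0.19 ± 0.41 for Psmb10 (edgeR adjusted p = 0.488, 0.394 and 0.769). Without P1 replicate 4 they were 0.70, 0.63 and 0.55 (adjusted p = 0.107, 0.0624 and 0.161). Without P1 replicate 5 they were -0.05, 0.16 and -0.18 (adjusted p = 0.919, 0.702 and 0.762), so the direction for Psmb8 and Psmb10 turned. P1 replicate 4 also had the largest red cell precursor sum, 194100 CPM, and the smallest sum of the genes shared by white blood cells, 1626 CPM against 4974 and 3542 in P1 replicates 3 and 5 and 6393 to 7125 in WT. Whether these account for its low subunit levels was not tested.

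Ratios within a library are free of library scaling. In counts per kilobase, Psmb8 over Psmb5 was 1.59, 1.16 and 1.48 in P1 and 1.70, 1.45 and 1.79 in WT (exact permutation p = 0.3). Psmb9 over Psmb6 was 1.28, 0.981 and 1.01 in P1 and 0.949, 0.802 and 0.909 in WT, and here every recipient was above every WT sample (exact permutation p = 0.1, adjusted 0.4). Psmb10 over Psmb7 was 5.10, 3.18 and 9.19 in P1 and 5.06, 4.72 and 7.30 in WT (exact permutation p = 1). The mean of the 3 log2 ratios was 1.00 ± 0.34 in P1 and 1.01 ± 0.19 in WT (SD, n = 3 each), a difference of -0.01 (exact permutation p = 1). The direction of that mean turned when P1 replicate 4 or WT C was left out (0.19 and 0.09). For the single pairs, the differences of the mean log2 ratios were -0.231 for Psmb8, 0.289 for Psmb9 and -0.075 for Psmb10. Set against all constitutive 20S subunits in place of the replaced one, they were -0.001, 0.042 and -0.228. The difference for Psmb9 thus depended on the use of Psmb6 as denominator. The replaced subunits themselves did not pass the test. Psmb5 had 39.4, 31.5 and 67.9 CPM in P1 and 25.8, 32.7 and 34.2 CPM in WT (edgeR adjusted p = 0.219). Psmb6 had 65.7, 49.8 and 95.4 CPM in P1 and 57.1, 67.0 and 75.2 CPM in WT (edgeR adjusted p = 0.86). Psmb7 had 45.7, 30.3 and 33.1 CPM in P1 and 29.0, 37.7 and 31.8 CPM in WT (edgeR adjusted p = 0.71).

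**Figure D2:**
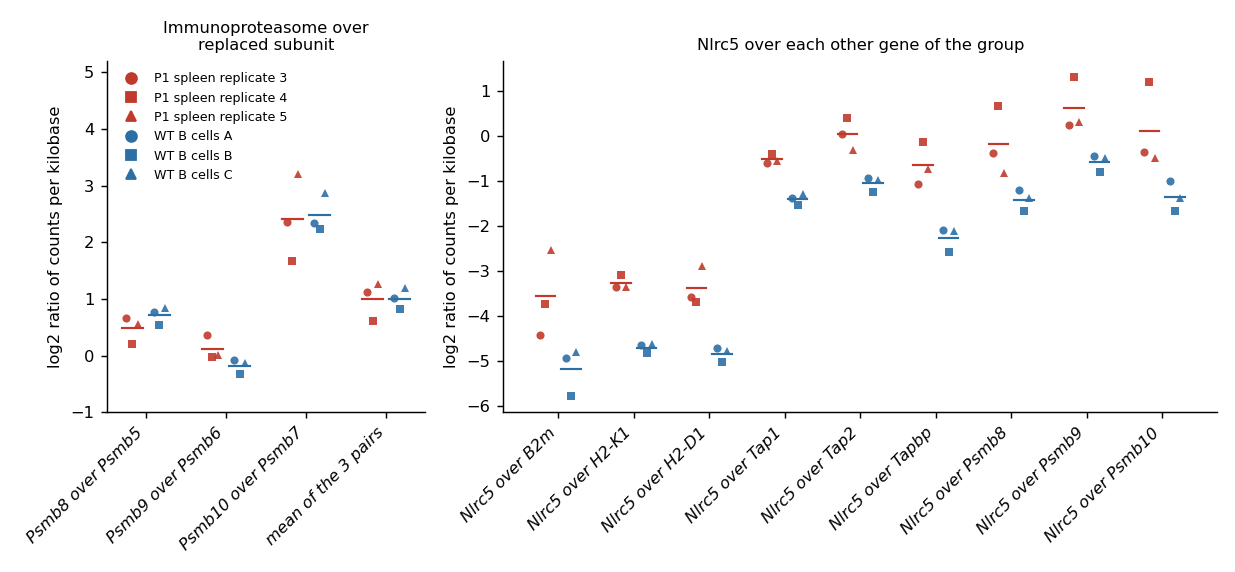
Log2 ratios of counts per kilobase within each library, with bars at group means (red P1 spleen, blue WT B cells). On the left the immunoproteasome ratios overlap except Psmb9 over Psmb6; on the right Nlrc5 is higher in all 3 P1 libraries than in all 3 WT libraries against each of the 9 other genes.

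Nlrc5 (chromosome 8, 95160984 to 95253900, plus strand) had 452, 548 and 537 CPM in P1 replicates 3, 4 and 5, against 181, 139 and 221 CPM in WT A, B and C. The lowest recipient, at 452 CPM, was well above the highest WT sample, at 221 CPM. The means were 512 ± 52.7 CPM in P1 and 180 ± 40.8 CPM in WT (SD, n = 3 each). Its log2 fold change was 1.51 ± 0.30, a fold of 2.84 (95% interval 1.78 to 4.55, edgeR adjusted p = 0.00659), higher in 3 of 3 recipients. The call was lost without WT A (1.48, adjusted p = 0.0533) or WT B (1.32, adjusted p = 0.0643), and with library totals in place of TMM factors (1.22, adjusted p = 0.0568). The size of the change stayed between 1.32 and 1.63 as each of the 6 libraries was left out. Without P1 replicate 4 it was 1.47 (adjusted p = 0.00893).

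Nlrc5 was higher in P1 relative to each of the 9 other genes within the libraries. Its ratio to H2-K1, in counts per kilobase, was 0.098, 0.117 and 0.097 in P1 and 0.04, 0.035 and 0.04 in WT. Its ratio to Tap1, the gene nearest to it in fold change, was 0.659, 0.752 and 0.68 in P1 and 0.382, 0.346 and 0.408 in WT. The difference of the mean log2 ratios ran from 0.88 against Tap1 to 1.62 against Tapbp. Of the 45 ratios between 2 genes of the group, 15 separated P1 from WT, and 9 of those involved Nlrc5. These ratios were read after the rise of Nlrc5 was known and are given without a test. How often ratios between other genes separate the groups was not counted, so the 15 have no background to be read against. For single genes, the groups were apart in 47.8% of all tested. The rest of the 15 were Tap1 over H2-K1, H2-D1 and Tapbp, Tap2 over H2-K1 and Tapbp, and Psmb9 over Tapbp, each higher in P1.

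The order of levels per kilobase was much the same in both groups at its top and differed at its foot. In P1 it ran from B2m (793 ± 394 CPM per kilobase), H2-D1 (646 ± 181) and H2-K1 (583 ± 58.0) to Tapbp (95.9 ± 21.9), Tap1 (86.6 ± 6.12), Psmb8 (74.1 ± 35.6), Psmb10 (61.8 ± 30.9), Nlrc5 (60.3 ± 6.20), Tap2 (59.9 ± 16.2) and Psmb9 (40.8 ± 13.1; SD, n = 3). In WT the first 4 had the same order, at 764 ± 131, 604 ± 97.8, 550 ± 89.3 and 101 ± 11.7 CPM per kilobase, and Nlrc5 was last at 21.2 ± 4.81. The step below H2-K1 was the only pair of neighbours without overlap in P1. In WT the libraries of neighbours were also apart below Tapbp, below Tap2 and between Psmb9 and Nlrc5. Lengths are those of all merged exons in the table, so these levels are lower for genes with long or rarely used exons.

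How large the changes appear depends on what the libraries are scaled to. When the 16 pan-B cell genes were made equal on average between libraries, the median over all tested genes became 2.91 on the log2 scale, and all 10 genes were called higher, as were 89.7% of all tested genes. Under it H2-K1 was at 2.98, B2m at 3.11, Tapbp at 2.76 and Nlrc5 at 4.45, so that 8 of the 10 lay above the shifted median of all genes. Scaling to 10 genes shared by white blood cells gave a median of 1.10 over all genes and called 1 of the 10 higher (29.3% of all genes), Nlrc5 at 2.68 (edgeR adjusted p = 0.0142). Library totals called 0 of the 10 higher, against 12.5% of all genes. The pan-B cell genes themselves had a median log2 fold change of -2.61 on the TMM scale, with 0 of 16 called higher and 15 lower, so most genes measured against them come out higher in P1, and the calls of the 10 genes under that scaling say nothing particular to class I. The changes of other genes given from here on are on the TMM scale.

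**Figure D3:**
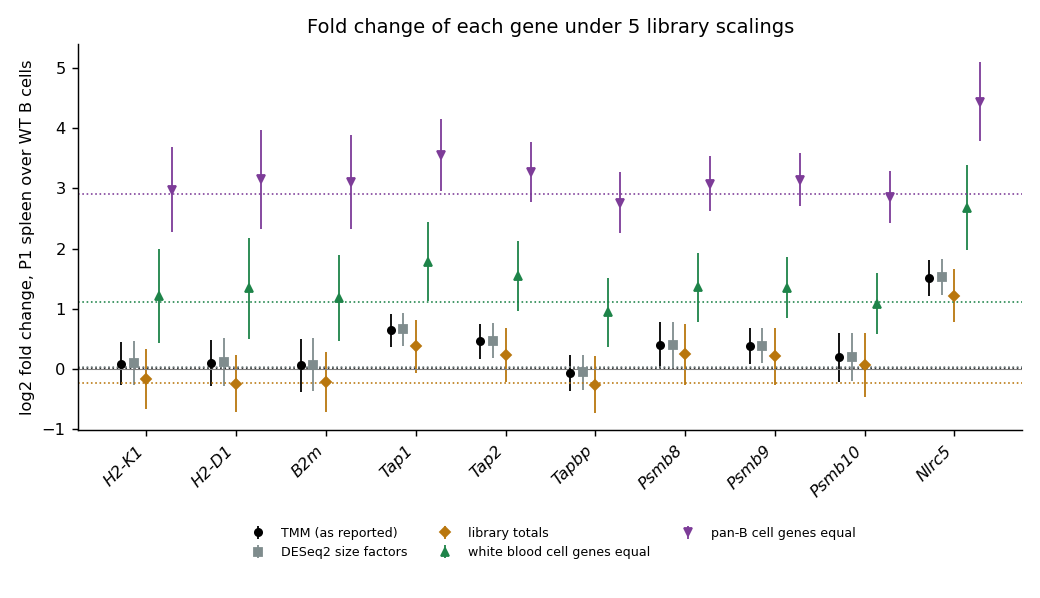
Log2 fold change of each gene, P1 spleen over WT B cells, with standard errors, under 5 ways of scaling the libraries; dotted lines are the median of all tested genes under the scaling of the same colour. The genes move together with the median, and Nlrc5 is farthest above it under each of the 5.

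Other genes of the pathway were taken from lists and are given as counts of calls by the same edgeR test. For comparison, that test called 16.9% of all tested genes higher and 11% lower, with a median log2 fold change of 0.02. Of 10 tested nonclassical class I genes of the MHC, 2 were higher and 1 lower (median log2 fold change 0.74). H2-T22, a ligand of some gamma delta T cells, rose by 0.90 ± 0.28, with 96.8, 158 and 103 CPM in P1 and 53.3, 63.5 and 74.2 CPM in WT (adjusted p = 0.0443). H2-Q10, which encodes a secreted class I molecule, rose by 2.02 ± 0.49 at a low level, 16.7, 12.7 and 5.10 CPM in P1 and 2.97, 2.63 and 2.87 CPM in WT (adjusted p = 0.0159). H2-M3, whose product presents N-formyl peptides, fell by 1.05 on the log2 scale, with 47.3, 31.0 and 65.4 CPM in P1 and 94.0, 85.2 and 120 CPM in WT (adjusted p = 0.0395). H2-T23, the most abundant of the list, was at -0.17 (adjusted p = 0.676). Reads of these genes can be exchanged with those of their paralogs, so single values are uncertain.

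Of 5 tested class I-like genes outside the MHC, 1 was higher and 1 lower (median -0.41). Procr, which encodes the endothelial protein C receptor, was the higher one (3.58 ± 0.72, adjusted p = 0.00726). Its level was near the floor, with counts of 28, 12 and 8 in P1 and 1, 2 and 4 in WT. Cd1d1, which presents lipids to NKT cells and is high in B cells, fell to 12.7, 5.09 and 9.40 CPM in P1, against 32.5, 28.1 and 26.003 CPM in WT (-1.65 ± 0.36, adjusted p = 0.0109). Among 8 genes of endoplasmic reticulum chaperones and peptide trimming, 0 were higher and 1 lower (median 0.16). That gene was Bcap31, an export receptor of the endoplasmic reticulum, at -1.05 (adjusted p = 0.0478). Calreticulin (Calr), the most abundant of them, was at 0.31 (adjusted p = 0.534).

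The proteasome lists had medians above that of all genes and few calls. Of 15 genes of the constitutive 20S particle with its assembly factor Pomp, 1 was higher and 0 lower (median 0.38), and of 17 genes of the 19S regulatory particle, 1 was higher and 0 lower (median 0.52). The called genes were Psma5 (0.92 ± 0.23, adjusted p = 0.0186) and Psmd13 (0.88 ± 0.28, adjusted p = 0.0456). Of the 3 PA28 activator genes, 1 was higher. This was Psme3 (1.57 ± 0.44, adjusted p = 0.0288), which encodes the nuclear activator PA28 gamma, with 374, 667 and 191 CPM in P1 and 135, 140 and 139 CPM in WT. Psme1 and Psme2, the pair that forms the interferon-induced activator and was picked out after its values were seen, were at 0.40 and 0.92 (adjusted p = 0.294 and 0.0729). Of 8 peptidase genes 3 were higher and 0 lower (median 0.14): Thop1, Lap3 and Ide, at 1.55, 1.08 and 1.06 (adjusted p = 0.0155, 0.0353 and 0.0479).

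**Figure D4:**
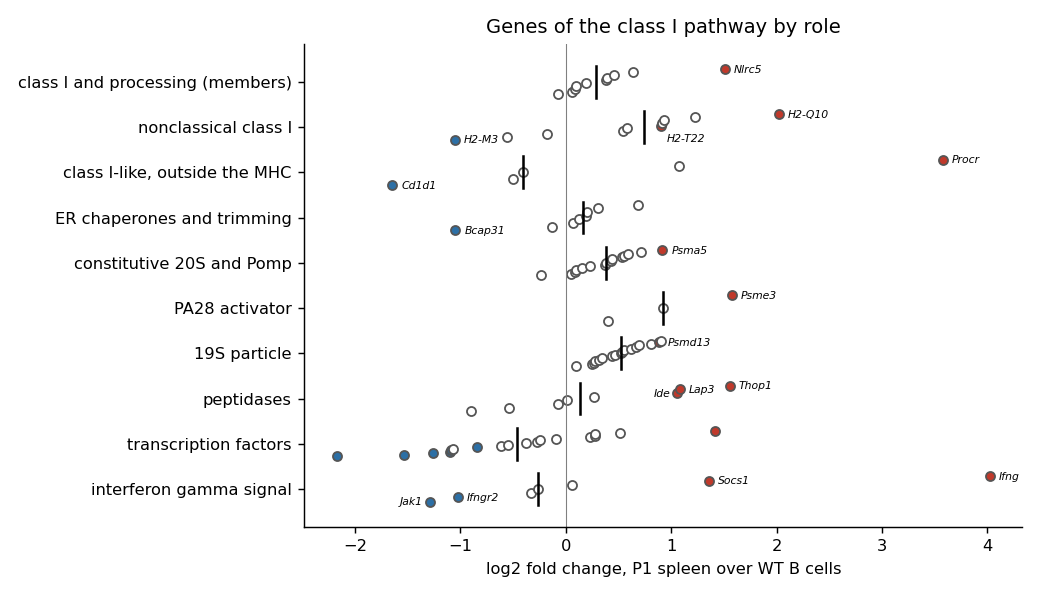
Log2 fold change of every tested gene of the pathway lists, P1 spleen over WT B cells, grouped by role; filled points passed an adjusted p of 0.05 (red higher, blue lower) and black bars are list medians. The proteasome lists lie mostly above 0 with 1 call each, and the transcription factor list has 6 lower and 1 higher gene.

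Among transcription factors of class I genes, more were called lower than higher, while Nlrc5 rose. Of 18 tested, 1 was higher and 6 lower (median -0.46), and most were not called. Over all tested genes 16.9% were called higher and 11% lower. Ciita, the coactivator of class II genes that is related to Nlrc5, fell to 233, 80.1 and 250 CPM in P1, against 845, 814 and 878 CPM in WT (-2.17 ± 0.45, adjusted p = 0.0087). Rfx5, which encodes the RFX subunit that both coactivators rely on, fell to 30.4, 21.5 and 42.2 CPM in P1, against 93.1, 84.1 and 95.7 CPM in WT (-1.53 ± 0.29, adjusted p = 0.00582). Nlrc5 over Ciita, in counts per kilobase, was 2.18, 7.68 and 2.41 in P1 and 0.24, 0.192 and 0.282 in WT. So Nlrc5 exceeded Ciita in each P1 library and lay below it in each WT library.

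Irf2, Creb1, Rela and Nfkb1 also fell (-1.26, -1.09, -1.10 and -0.84; edgeR adjusted p = 0.0141, 0.028, 0.00908 and 0.0411), and the acetyltransferase gene Kat2b rose (1.42, adjusted p = 0.0313). Of the 16 pan-B cell genes 15 fell in the same libraries, with sums of 1928, 1320 and 3759 CPM in P1 and 12080, 12340 and 11470 CPM in WT, and their part in these values was not tested. Irf1, an activator of class I, TAP and immunoproteasome genes, had 252, 205 and 126 CPM in P1 and 121, 133 and 156 CPM in WT (0.51 ± 0.31, adjusted p = 0.254). Irf1, like B2m, was highest in P1 replicate 3 and lowest of the recipients in P1 replicate 5.

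**Figure D5:**
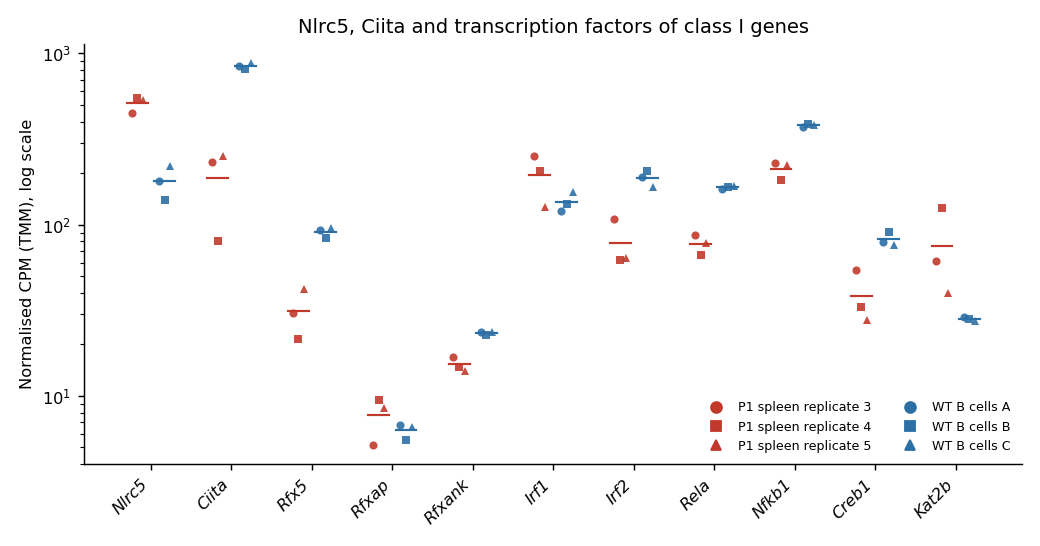
Normalised CPM on a log axis of Nlrc5, Ciita and transcription factors of class I genes in each library, with bars at group means (red P1 spleen, blue WT B cells). Nlrc5 lies higher and Ciita and Rfx5 lower in all 3 P1 libraries than in all 3 WT libraries, while the groups overlap for Irf1.

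Of 7 genes of the interferon gamma signal, 2 were higher and 2 lower (median -0.27). Ifng itself, a product of T and NK cells, had 13.8, 3.70 and 6.15 CPM in P1 and 0.061, 0.514 and 0.907 CPM in WT (4.02 ± 0.85, adjusted p = 0.00939). Its feedback inhibitor Socs1 rose by 1.36 ± 0.43 (adjusted p = 0.0473), and the receptor chain gene Ifngr2 and the kinase gene Jak1 fell (-1.03 and -1.29; adjusted p = 0.0401 and 0.0176). Transcripts of T cells were higher in the same libraries, with Cd3e at 76.4, 12.0 and 25.2 CPM in P1 and 2.12, 0.963 and 1.81 CPM in WT. The part of T cells in the Ifng level was not tested.

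Averaged over the 10 genes, the level relative to the mean of the 6 libraries was 0.26, -0.06 and 0.30 log2 units in P1 and -0.28, -0.27 and 0.06 in WT. Among 3927 other genes with a mean of at least 50 CPM, Tmbim6, Psme1, Calm3, Ptpn11 and Hnrnpm came closest to this profile, at root mean square distances of 0.085 to 0.11 log2 units over the 6 libraries. Of the 10 genes themselves, H2-K1 lay closest to it (0.164) and B2m and Nlrc5 farthest (0.611 and 0.637).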

How the data were processed

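RNA-seq of 3 P1 spleens and 3 samples of WT splenic B cells was analysed. The authors deposited raw counts per gene as 1 table. Per the labels, 50 ng of total RNA went into a directional library kit. Per the submitters' processing notes, the tools were Trim Galore, HISAT2 and featureCounts and the build was GRCm39; their versions, settings and the counting strand are not given in the sources used here. If strand was not used, reads where exons overlap on opposite strands (212 bases between Tap1 and Psmb9) cannot be assigned.

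Gene IDs were given symbols for 51948 of 56884 genes. In edgeR (4.0.16, R 4.3.3), genes were filtered with filterByExpr by group, scaled with TMM and tested with the robust quasi-likelihood F test without covariates, with Benjamini-Hochberg adjustment over all 15462 genes at 0.05. Standard errors are the log2 fold change divided by the square root of F. Within-library ratios used counts plus 0.5 per kilobase and two-sided exact permutation tests (scipy 1.17.1). All 10 genes were named, with called genes of the other pathway lists, the most abundant gene of some of them, the replaced subunits, Ciita, Rfx5, Irf1, cell markers and the 5 genes of nearest profile. The lists held 197 entries, of which 196 matched. The genes and lists were chosen with earlier results of these data known. Alternatives were DESeq2 (1.42.0), 4 other scalings, no filter, summed chain genes and leaving out each library. Ratios were also set against other denominators. The tests were tested on simulated data.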

Additional observations from a re-analysis of the deposited data

How the results depend on the processing

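No gene was called lower under any of the 13 alternatives. The number called higher was 0 with library totals, 10 with pan-B cell scaling, 2 with DESeq2 and 0 to 1 as each library was left out. Log2 fold changes with library totals were -0.17 for H2-K1, -0.25 for H2-D1, -0.22 for B2m and -0.19 for the summed class I chains. Without a filter on low counts they were -0.045, -0.046, -0.069 and -0.020. With pan-B cell scaling the sum was at 3.10 and Tapbp at 2.76, and with white blood cell scaling Tapbp was at 0.94. The cause of these shifts was not tested.

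As each library was left out, the log2 fold change ran from -0.05 to 0.17 for H2-K1, -0.11 to 0.26 for H2-D1, -0.32 to 0.38 for B2m, 0.19 to 0.59 for Tap2, -0.20 to 0.13 for Tapbp, -0.049 to 0.70 for Psmb8, -0.18 to 0.55 for Psmb10, 0.16 to 0.63 for Psmb9, 1.32 to 1.63 for Nlrc5 and -0.008 to 0.21 for the chain sum. The mean immunoproteasome difference ran from -0.13 to 0.19 and Psmb10 over Psmb7 from -0.47 to 0.29. Differences in the ratio to B2m ran from -0.38 to 0.56 for H2-K1, -0.12 to 0.48 for H2-D1, -0.17 to 0.95 for Tap2, -0.57 to 0.33 for Tapbp, -0.46 to 0.87 for Psmb8, -0.26 to 0.84 for Psmb9 and -0.68 to 0.76 for Psmb10. Set against H2-K1 in place of B2m, H2-D1 was at -0.023 and Psmb10 at -0.033.

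No paired analysis was possible because the labels give the groups only 1 replicate number in common, and the WT columns carry none of their own. The 95% intervals of 9 of the 10 genes, all but Nlrc5, reach a fold between 1.52 and 2.41 upward, so changes up to those sizes are not excluded for them. Downward they reach folds of 0.517 for B2m, 0.576 for H2-D1, 0.595 for Psmb10, 0.596 for Tapbp and 0.598 for H2-K1. For Psmb8, Psmb9 and Tap2 they reach 0.714, 0.80 and 0.869. Losses of those sizes are not excluded for these genes either. The lower limit for Tap1 was 1.01. The lowest count of the 10 genes in any library was 208, so the spread between libraries sets these limits.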
